A study of Mus musculus with 4 samples.

Results

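The genes described here belong to the use of arginine by macrophages, with inducible nitric oxide synthase and ornithine decarboxylase, and to the response of macrophages to interleukin 4 (IL-4). The members were Nos2, Odc1, Il4ra, Chil3, Retnla, Mgl2 and Folr2, chosen by symbol, which makes 7 of the 54146 genes in the count table. All 7 had counts in every library and were tested. Gene positions are those of GENCODE M21 on GRCm38 (mm10). Tumor-associated macrophages (TAMs) were sorted by FACS as live CD11b+ F4/80+ cells, after magnetic enrichment of CD45+ cells, from subcutaneous MCA205 tumors, and their polyadenylated RNA was sequenced. MCA205 is a mouse fibrosarcoma cell line. The hosts were female C57BL/6 mice 8 to 16 weeks of age in both groups. Treated mice received propranolol, a blocker of beta-adrenergic receptors, at 0.5 g/L in drinking water from the day the tumor cells were injected, and control mice, labelled vehicle, did not. Each group had 2 libraries, 4 in all. The study calls the libraries of a group biological replicates, but the labels do not say whether a library came from 1 mouse or from a pool, and they name no batch.

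Arginine can be broken down to ornithine and urea, and ornithine decarboxylase turns ornithine into putrescine, the first of the polyamines. Nitric oxide synthase uses the same arginine to make nitric oxide and citrulline. In mouse macrophages Chil3, Retnla and Mgl2 are the textbook products of IL-4 and IL-13 acting through the receptor chain IL-4Ralpha and the transcription factor STAT6, whereas Nos2 is the textbook product of interferon gamma and bacterial lipopolysaccharide.

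Total counts were 13798249 and 23018142 in control replicates 1 and 2, and 39818103 and 16424081 in propranolol replicates 1 and 2. Values per library are CPM (counts per 1000000 counts of a library) on library sizes scaled by TMM, the trimmed mean of M-values. Levels of different genes are compared as TPM (transcripts per 1000000 transcripts), which divide by gene length and carry no TMM scaling. A gene was called when its edgeR quasi-likelihood p-value, adjusted by the Benjamini-Hochberg method over all 14688 tested genes, was under 0.05 and its fold change was above 1.5. By this rule 12.2% of all tested genes were called higher and 15.6% lower after propranolol, and the median log2 fold change of all tested genes was -0.02.

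The sorted cells carried the RNA of macrophages in all libraries. The F4/80 gene Adgre1 was at 975 and 1008 CPM in control and at 1151 and 1100 CPM in propranolol libraries. The CSF1 receptor gene Csf1r was at 2553, 2464, 3595 and 3981 CPM in the same order and was called higher, though not with a trend with transcript GC content removed (0.32). Itgam, the CD11b gene used in the sort, was at 359, 352, 369 and 313 CPM and was not called. Ptprc, the CD45 gene used in the enrichment, was called lower, at 754 and 780 CPM in control and 479 and 442 CPM in propranolol libraries (log2 fold change -0.74), and was at 0.20 with that trend removed. The C1q complement genes C1qa, C1qb and C1qc had log2 fold changes of -0.18, 0.51 and 0.25, and the lysosomal marker Cd68 one of 0.57, and none of these 4 was called. C1qb, C1qc and Cd68 had an edgeR adjusted p = 0.000923, 0.0474 and 0.000884 but were under 1.5-fold. With the GC trend removed the log2 fold changes of the 4, in the order C1qa, C1qb, C1qc and Cd68, were -0.51, 0.18, -0.087 and 0.37, so C1qc turned, and none was called. The sort gate should leave out cells without CD11b or F4/80, but transcripts of other cells were present and some moved with the treatment. The 9 fibroblast and sarcoma markers summed to 3323 and 1268 CPM in control and to 720 and 752 CPM in propranolol libraries, so control replicate 1 stood above the other libraries.

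Of the 7 members, 4 were called higher and 0 lower, beside 27.8% of all tested genes called in either direction. The 4 were Nos2, Il4ra, Chil3 and Folr2. The median log2 fold change of the 7 was 0.62. In 5 of the 7 both propranolol libraries lay above both control libraries, an arrangement found in 35.8% of all tested genes, with the reverse in 36.9%. Across all genes the fold change ran with the GC content of the transcript, and with that trend removed 1 of the 7, Chil3, was called higher and 0 lower, beside 7.64% of all tested genes called higher and 4.99% lower (12.6% in all). Without propranolol replicate 1, 3 members were called (Nos2, Il4ra and Chil3), beside 12.1% of genes called higher in that fit, and with upper-quartile factors 2 were called (Il4ra and Chil3), beside 9.65% of genes called higher in that fit. In bulk RNA, a difference in the number of cells that express a gene and a difference in its RNA per cell cannot be told apart.

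**Figure D1:**
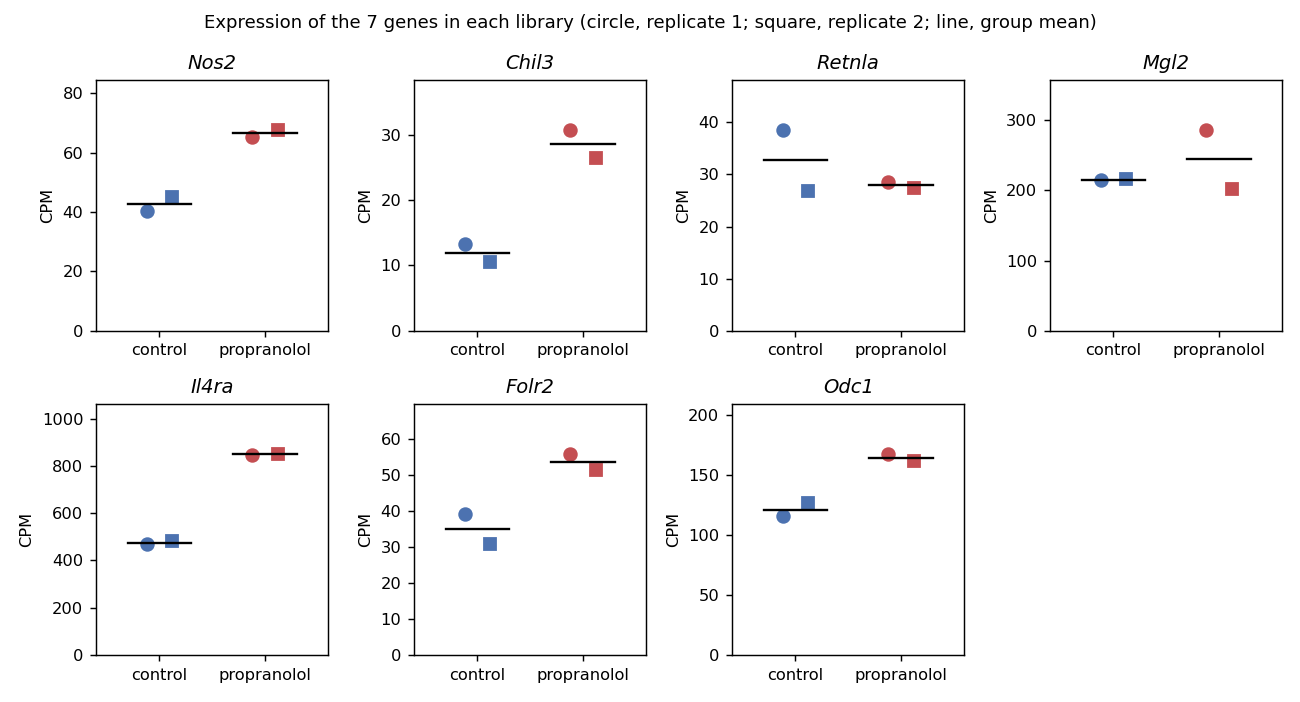
Expression of each of the 7 genes in CPM (vertical axis, from 0) in the control and propranolol libraries, with circles for replicate 1, squares for replicate 2 and lines for the group means. The groups are apart for 5 genes and overlap for Retnla and Mgl2, and the propranolol libraries are widely spaced for Mgl2, at 286 and 203 CPM.

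Nos2 (ENSMUSG00000020826.8, chr11:78920787-78960254), the gene of inducible nitric oxide synthase, makes nitric oxide from arginine, and it rose after propranolol. It stood at 40.3 and 45.1 CPM in control libraries (42.7 ± 3.39, SD, n = 2) and at 65.4 and 67.6 CPM in propranolol libraries (66.5 ± 1.59, SD, n = 2). The groups did not overlap and the replicates were close in both. The log2 fold change of Nos2 was 0.64 (SE 0.11, 95% interval 0.38 to 0.89), with an edgeR adjusted p = 0.00174, and it stayed between 0.62 and 0.74 with any 1 library left out, but with upper-quartile factors it was 0.58, under 1.5-fold. At a GC content of 53.9%, Nos2 lay in the eighth from below of 10 equal groups of genes by GC content, whose median log2 fold change was 0.37. Once the GC trend was removed its log2 fold change was 0.39, under 1.5-fold, with an edgeR adjusted p = 0.0259.

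The wider list of 23 genes for arginine and nitric oxide metabolism had 20 tested genes. Of these, 3 (15.0%) were called higher and 0 lower, beside 12.2% of all tested genes called higher and 15.6% lower. The list median was 0.35 on the log2 scale beside -0.02 for all tested genes. More genes of the list were called higher without control replicate 1 or without propranolol replicate 2. The called genes were Nos2, Asl and Spr. Asl, argininosuccinate lyase, takes the last step in the remaking of arginine from citrulline. It stood at 46.5 and 41.8 CPM in control and at 77.8 and 69.9 CPM in propranolol libraries (log2 fold change 0.75, SE 0.12, edgeR adjusted p = 0.00087). Ass1, named after its values were seen, takes the step before it and was not called (log2 fold change 0.31, edgeR adjusted p = 0.126). Spr, sepiapterin reductase, makes the tetrahydrobiopterin cofactor of nitric oxide synthase. It stood at 42.5 and 38.1 CPM in control and at 68.9 and 61.0 CPM in propranolol libraries (log2 fold change 0.69, SE 0.12, edgeR adjusted p = 0.00151). For Asl and Spr too the groups did not overlap. Gatm, the amidinotransferase that moves the amidino group of arginine to glycine on the way to creatine, was the most abundant gene of the list. It stood at 619 and 666 CPM in control and at 742 and 661 CPM in propranolol libraries, where the groups overlapped (log2 fold change 0.13, SE 0.10, edgeR adjusted p = 0.325). With the GC trend removed Asl at 0.44, Spr at 0.56 and Nos2 at 0.39 were no longer called, and 3 other genes of the list were called higher, Gatm at 0.66 and, named after their values were seen, Oat at 0.60 and Gch1 at 0.75.

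Odc1 (ENSMUSG00000011179.8, chr12:17544794-17551505), ornithine decarboxylase, takes ornithine made from arginine into polyamines. It stood at 116 and 126 CPM in control libraries (121 ± 7.25, SD, n = 2) and at 168 and 161 CPM in propranolol libraries (165 ± 4.26, SD, n = 2). The groups did not overlap, but the log2 fold change of 0.44 (SE 0.10, 95% interval 0.22 to 0.66, edgeR adjusted p = 0.00572) was under 1.5-fold and Odc1 was not called. The adjusted p alone was under 0.05 in 42.2% of all tested genes, 21.8% being higher. Its GC content was 52.4%, in a group with a median log2 fold change of 0.27, and with the GC trend removed its log2 fold change was 0.27 (edgeR adjusted p = 0.0609).

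The polyamine list, 18 of 19 genes tested, had 5 genes called higher and 2 lower, and its median was 0.30 on the log2 scale. The called genes made up 38.9% of those tested, beside 27.8% of all tested genes (12.2% higher and 15.6% lower). Smox, the spermine oxidase that turns spermine back into spermidine, moved most. It stood at 160 and 165 CPM in control and at 384 and 463 CPM in propranolol libraries, with no overlap (log2 fold change 1.38, SE 0.11, edgeR adjusted p = 0.000103). Dohh, the hydroxylase that completes the spermidine-derived hypusine residue of the translation factor eIF5A, had a log2 fold change of 1.05 (SE 0.13, edgeR adjusted p = 0.000318). Atp13a2, a lysosomal polyamine exporter, had one of 0.98 (SE 0.11, edgeR adjusted p = 0.000171). Smox, Dohh and Atp13a2 were also the 3 genes of the list called with the GC trend removed, at 1.10, 0.80 and 0.72. The remaining higher genes, named after their values were seen, were Srm, spermidine synthase, at 0.88 and Oaz1, the antizyme that binds ornithine decarboxylase and sends it for degradation, at 0.65. Eif5a, the most abundant gene of the list, had a log2 fold change of 0.42 and was not called.

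The genes called lower in the polyamine list were Azin1 and Atp13a3. Azin1, a catalytically inactive relative of Odc1 that frees it from antizyme, stood at 89.3 and 85.0 CPM in control and at 48.1 and 35.6 CPM in propranolol libraries (log2 fold change -1.05, SE 0.14, edgeR adjusted p = 0.000442). Atp13a3, a polyamine transporter, stood at 158 and 133 CPM in control and at 75.6 and 79.2 CPM in propranolol libraries (log2 fold change -0.91, SE 0.11, edgeR adjusted p = 0.000286). Both had GC contents under 40% (39.3% for Azin1 and 39.7% for Atp13a3), in the group of lowest GC content, whose median log2 fold change was -0.94. After removal of the GC trend Azin1 was at -0.11 (edgeR adjusted p = 0.565) and Atp13a3 had an edgeR adjusted p = 0.999, so neither was called against genes of like GC content.

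Il4ra (ENSMUSG00000030748.9, chr7:125552120-125579474) encodes the IL-4Ralpha chain that binds IL-4 and is shared by the receptors for IL-4 and IL-13. It stood at 471 and 481 CPM in control libraries (476 ± 6.74, SD, n = 2) and at 848 and 850 CPM in propranolol libraries (849 ± 1.12, SD, n = 2). The groups were far apart for the closeness of their replicates. The log2 fold change of Il4ra was 0.83 (SE 0.09, 95% interval 0.64 to 1.03, edgeR adjusted p = 0.000149), and only 6.11% of tested genes had a higher one. It stayed between 0.84 and 0.88 with any 1 library left out. Il4ra had the highest GC content of the 7 genes, 55.8%, and the median change in the group of genes around it was 0.47. Corrected for the GC trend, the log2 fold change was 0.52, under 1.5-fold, with an edgeR adjusted p = 0.00357. An antisense gene, Gm44876, covers 9.5% of the exon bases of Il4ra.

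With all libraries and the filter on counts, no other gene of the IL-4 receptor list was called higher. Of 17 genes 14 were tested, and Il4ra was the 1 called higher beside 2 called lower, with a list median of 0.09. The called genes made up 21.4% of those tested, beside 27.8% of all tested genes (12.2% higher and 15.6% lower). Without the filter on counts 3 genes of the list were called higher, and the number also rose in some fits with a library left out. Il13ra1, which pairs with IL-4Ralpha in the receptor that binds IL-13, stood at 94.6 and 76.0 CPM in control and at 44.7 and 38.5 CPM in propranolol libraries (log2 fold change -1.03, SE 0.14, edgeR adjusted p = 0.000385). Jak2, a kinase used by that receptor, stood at 91.7 and 92.6 CPM in control and at 61.5 and 52.0 CPM in propranolol libraries (log2 fold change -0.69, SE 0.11, edgeR adjusted p = 0.00113). Both genes lay lower in every propranolol library than in any control library. Their GC contents were 41.2% and 44.3%, and with the GC trend removed neither was called, at -0.29 and -0.26, and no gene of the list was. Jak2 was at -0.55, also under 1.5-fold, when propranolol replicate 2 was left out. The other kinase genes of the list, named after their values were seen, did not fall with it. Tyk2 was at 0.58, Jak3 at 0.53 and Jak1 at -0.08, none of them called, and at 0.24, 0.23 and 0.10 with the GC trend removed. Ptpn6, the phosphatase SHP-1 and the most abundant gene of the list, had a log2 fold change of 0.35 and was not called. The cytokine genes themselves, given here after their values were seen, were near absence. Il4 had 11 and 4 counts in control and 5 and 7 counts in propranolol libraries, and Il13 had 3, 3, 11 and 1 counts in the same order, too few to be tested.

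**Figure D2:**
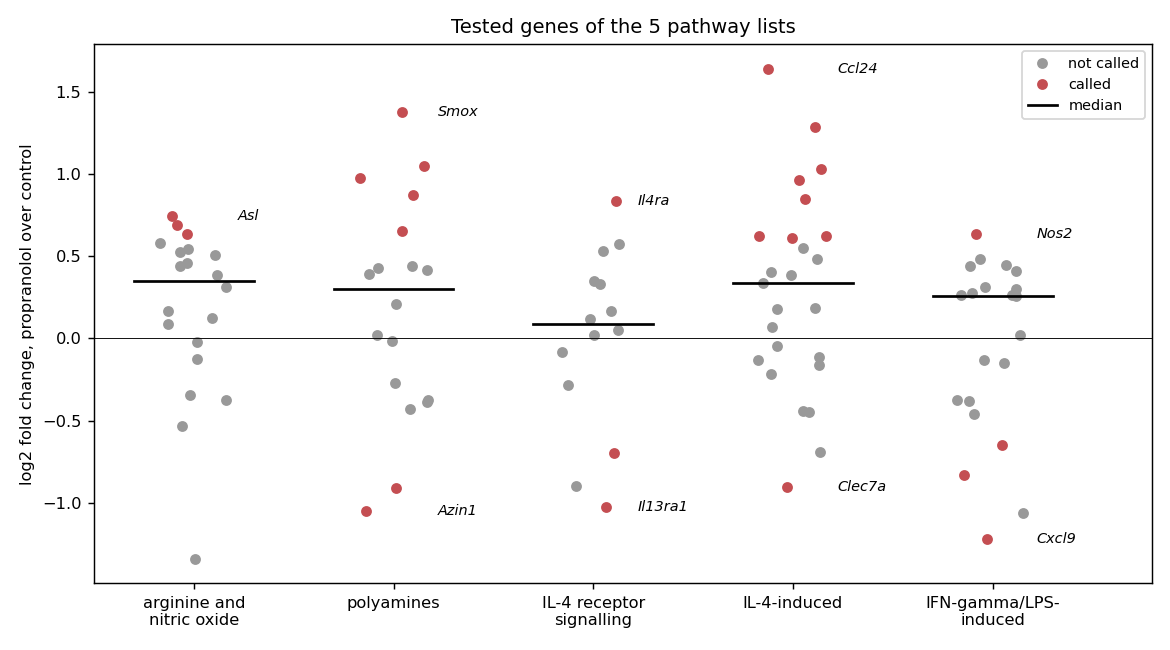
Log2 fold change, propranolol over control (vertical axis), of each tested gene in the 5 pathway lists, with called genes in red, others in grey and the list median as a line. Genes above and below 0 occur in every list, and of the called genes Ccl24 and Smox lie highest and Cxcl9, Azin1 and Il13ra1 lowest.

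Chil3 (ENSMUSG00000040809.10, chr3:106147554-106167564) encodes the secreted chitinase-like protein Ym1, and it changed most of the 7 genes. It stood at 13.3 and 10.5 CPM in control libraries (11.9 ± 1.98, SD, n = 2) and at 30.8 and 26.5 CPM in propranolol libraries (28.6 ± 3.09, SD, n = 2). Both propranolol libraries were well above both control libraries. The log2 fold change of Chil3 was 1.28 (SE 0.17, 95% interval 0.91 to 1.66, edgeR adjusted p = 0.000374), and 1.13% of tested genes had a higher one. It was called under each of the 18 alternative settings that kept a 1.5-fold limit, with log2 fold changes of 1.13 to 1.88. Its GC content of 45.0% placed it among genes with a median log2 fold change of -0.33, and with the GC trend removed it was at 1.67. The neighbouring close copy Chil4 was almost absent, with 0 and 3 counts in control and 0 and 0 in propranolol libraries.

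Chil3 is also a product of neutrophils and monocytes, and some genes in the marker lists of both were called higher. Of 13 neutrophil markers 8 were tested, of which 5 were called higher and 0 lower, and the list summed to 182 and 199 CPM in control and to 358 and 383 CPM in propranolol libraries. Its most abundant gene per length, S100a9, stood at 19.2 and 21.1 CPM in control and at 83.8 and 82.5 CPM in propranolol libraries. The defining neutrophil gene Ly6g had 0 and 2 counts in control and 17 and 8 counts in propranolol libraries, Ltf of the neutrophil granules had a log2 fold change of -0.33 (edgeR adjusted p = 0.586), and no marker of the list was at 0 in all libraries. Of the 8 genes listed as monocyte markers 4 (Fn1, Hp, Plac8 and Cd177) were called higher and 0 lower, with sums of 2918 and 2610 CPM in control and 4859 and 4199 CPM in propranolol libraries. The rise of this sum was that of Fn1, since the other 7 genes summed to 634 and 548 CPM in control and to 593 and 499 CPM in propranolol libraries. The called genes are not particular to monocytes, and Cd177 is better known from neutrophils. Ly6c2, a gene of inflammatory monocytes, stood at 39.2 and 36.2 CPM in control and at 62.5 and 38.4 CPM in propranolol libraries. Its groups overlapped and it was not called (log2 fold change 0.43, edgeR adjusted p = 0.0985). Ccr2, the monocyte receptor for CCL2, stood at 454 and 397 CPM in control and at 306 and 262 CPM in propranolol libraries, with no overlap (log2 fold change -0.58, edgeR adjusted p = 0.00249, just under 1.5-fold), but its sign turned, to 0.36, with the GC trend removed. The sort gate given above should remove cells that lack its surface markers. The part of neutrophils and monocytes in the change of Chil3 was not tested.

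Retnla (ENSMUSG00000061100.4, chr16:48842551-48844461) encodes Fizz1, also called RELMalpha, a secreted protein that IL-4 induces along with Ym1. It did not follow Chil3. Retnla stood at 38.6 and 26.9 CPM in control libraries (32.7 ± 8.25, SD, n = 2) and at 28.6 and 27.4 CPM in propranolol libraries (28.01 ± 0.803, SD, n = 2). Control replicate 1 was the highest library and the other 3 lay together, so the groups overlapped. Its log2 fold change was -0.21 (SE 0.17, 95% interval -0.59 to 0.16, edgeR adjusted p = 0.337). Without control replicate 1 it was 0.12 and with the GC trend removed it was 0.037, so it had no settled direction. The relatives of Retnla differed from it, since Retnlb had 0 counts in all libraries and Retnlg, a neutrophil gene, was called higher at a log2 fold change of 0.79 (SE 0.17, edgeR adjusted p = 0.0052).

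The stretches before the start sites of Chil3 and Retnla are shown because these textbook IL-4 products parted in the data and because, among the 6 members with a promoter entry in the RefSeq table (assembly GRCm38.p6), they are the ones with a STAT-type match. Nos2 had no entry. The motifs sought on both strands in the 250 bases before each start were TTCNNNNGAA, the spacing that STAT6 prefers, TTCNNNGAA, the spacing of other STAT proteins, the E-box CACGTG, the cAMP response element TGACGTCA and GAAANNGAAA of IRF proteins. None of the 5 occurred in the windows of Mgl2, Il4ra, Folr2 (at either of its start sites) and Odc1. Capitals mark the match, and each stretch is given 5′ to 3′ on the strand of the gene, chr3:106167565-106167814 on the minus strand for Chil3 and chr16:48842359-48842550 on the plus strand for Retnla, where bases that GENCODE places within the gene are left out.
Chil3: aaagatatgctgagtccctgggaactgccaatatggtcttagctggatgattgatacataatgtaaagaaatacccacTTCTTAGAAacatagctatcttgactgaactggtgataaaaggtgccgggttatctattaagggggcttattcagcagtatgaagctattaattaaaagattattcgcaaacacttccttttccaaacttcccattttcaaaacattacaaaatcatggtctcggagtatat
Retnla: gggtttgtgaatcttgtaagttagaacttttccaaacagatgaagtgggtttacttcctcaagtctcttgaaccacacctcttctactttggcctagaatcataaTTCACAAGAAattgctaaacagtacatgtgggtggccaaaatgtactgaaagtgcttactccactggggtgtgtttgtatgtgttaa

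In Chil3 the match TTCTTAGAA lies 172 to 164 bases before the start and has the spacing of 3 bases, which 7.02% of 32851 such windows hold. In Retnla the match TTCACAAGAA lies 145 to 136 bases before the RefSeq start and has the spacing of 4 bases, which 5.85% of the windows hold. The matches are a description of these letters and no binding was measured.

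Mgl2 (ENSMUSG00000040950.13, chr11:70130329-70137550), which encodes the C-type lectin CD301b, was at 214 and 216 CPM in control libraries (215 ± 1.42, SD, n = 2) and at 286 and 203 CPM in propranolol libraries (245 ± 59.3, SD, n = 2). The propranolol libraries lay on either side of the control libraries. Mgl2 had a log2 fold change of 0.19 (SE 0.14, 95% interval -0.14 to 0.51, edgeR adjusted p = 0.3328), with -0.085 when propranolol replicate 1 was left out and 0.44 when propranolol replicate 2 was. Clec10a, the close copy of Mgl2 that encodes CD301a, stood at 35.2 and 26.1 CPM in control and at 41.5 and 39.2 CPM in propranolol libraries (log2 fold change 0.41, SE 0.15, edgeR adjusted p = 0.055) and was not called.

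Folr2 (ENSMUSG00000032725.10, chr7:101839988-101857194), the folate receptor beta, marks a class of resident-type macrophages. It stood at 39.2 and 30.7 CPM in control libraries (35.0 ± 6.05, SD, n = 2) and at 55.7 and 51.3 CPM in propranolol libraries (53.5 ± 3.12, SD, n = 2). The groups did not overlap. Folr2 had a log2 fold change of 0.62 (SE 0.14, 95% interval 0.31 to 0.93, edgeR adjusted p = 0.00564), just past 1.5-fold. Without control replicate 2 it was 0.46, without propranolol replicate 1 it was 0.56, with upper-quartile factors it was 0.56 and with the GC trend removed it was 0.49, all under 1.5-fold. The antisense gene Gm10602 covers 63.1% of the exon bases of Folr2, and no strand option of the counting is named. Gm10602 itself was at 1.48 and 1.20 CPM in control and at 1.27 and 1.38 CPM in propranolol libraries. Folr1, the close copy of Folr2, had 0 and 0 counts in control and 2 and 0 in propranolol libraries.

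**Figure D3:**
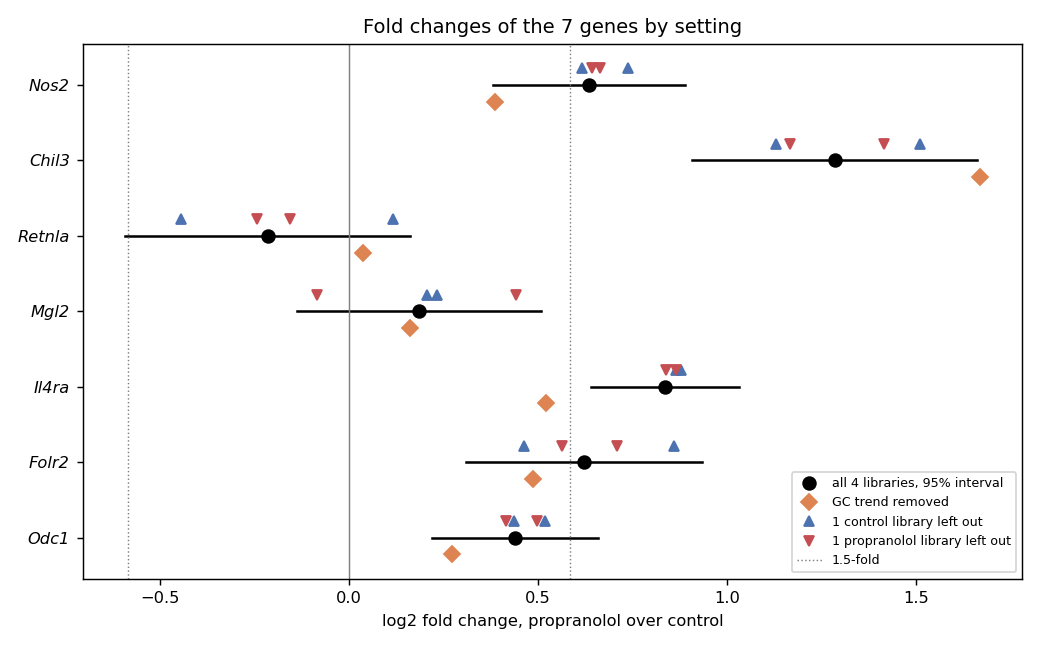
Log2 fold change, propranolol over control (horizontal axis), of the 7 genes with all libraries (black, 95% interval), with the GC trend removed (diamonds) and with each library left out (triangles). Chil3 stays right of the dotted 1.5-fold line throughout, Il4ra shifts below it only with the GC trend removed, and Mgl2 spans -0.085 to 0.44 according to which propranolol library is left out.

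Among the 25 tested genes of the IL-4-induced list, 8 were called higher and 1 lower, and the median was 0.33 on the log2 scale. The called genes made up 36.0% of those tested, beside 27.8% of all tested genes (12.2% higher and 15.6% lower). Chil3 and Folr2 are 2 of the 8, though Folr2 marks a class of resident-type macrophages, as given above. The list was put together by gene name, and no response of the sorted cells to IL-4 was measured. Ccl24, the chemokine eotaxin-2, had the highest log2 fold change, 1.64 (SE 0.40, edgeR adjusted p = 0.00841). It stood at 4.79 and 3.91 CPM in control and at 19.4 and 7.01 CPM in propranolol libraries, and without propranolol replicate 1 it was at 0.70 and not called. Tgm2, transglutaminase 2, stood at 649 and 737 CPM in control and at 1426 and 1403 CPM in propranolol libraries, with no overlap (log2 fold change 1.03, SE 0.10, edgeR adjusted p = 0.000103, and 0.70 with the GC trend removed). Clec7a, the beta-glucan receptor dectin-1, was the gene called lower. It stood at 196 and 191 CPM in control and at 131 and 74.8 CPM in propranolol libraries (log2 fold change -0.90, SE 0.20, edgeR adjusted p = 0.00546). Clec7a has a GC content of 40.6%, its log2 fold change was -0.12 with the GC trend removed and -0.53 without propranolol replicate 2, and the DESeq2 Wald test gave it an adjusted p = 0.0673. Mrc1, the mannose receptor CD206 and the most abundant gene of the list by TPM over all 4 libraries (Tgm2 was above it in propranolol libraries), stood at 1439 and 1231 CPM in control and at 1748 and 1618 CPM in propranolol libraries. Its groups did not overlap, but its log2 fold change of 0.33 (SE 0.10, edgeR adjusted p = 0.0224) was under 1.5-fold, and with the GC trend removed it was called at 0.85 (edgeR adjusted p = 0.000712). In that fit 8 genes of the list were called higher and 0 lower, beside 7.64% of all tested genes called higher and 4.99% lower. The split was 5 higher and 3 lower without propranolol replicate 1, and 5 higher and 1 lower with upper-quartile factors.

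Nos2 was the 1 gene called higher of the 21 tested in the list induced by interferon gamma and lipopolysaccharide, where 3 were called lower and the median log2 fold change was 0.26. The called genes made up 19.0% of those tested, beside 27.8% of all tested genes (12.2% higher and 15.6% lower). Cxcl9, an interferon-induced chemokine that draws T cells, stood at 550 and 551 CPM in control and at 282 and 189 CPM in propranolol libraries (log2 fold change -1.22, SE 0.16, edgeR adjusted p = 0.00034). The interferon-induced GTPases Gbp2 and Gbp5 had log2 fold changes of -0.83 (SE 0.12, edgeR adjusted p = 0.000587) and -0.65 (SE 0.10, edgeR adjusted p = 0.000756). All 3 lay lower in both propranolol libraries than in both control libraries. With the GC trend removed Cxcl9 was at -0.70, Gbp2 at -0.58, just under 1.5-fold, and Gbp5 at -0.59, and Nos2 was no longer among the called genes. In that fit 3 genes of the list were called higher, named after their values were seen as Ptgs2 at 1.36, Gch1 at 0.75 and Il1b at 0.69, and 2 lower, Cxcl9 and Gbp5. Without propranolol replicate 2 as well, 0 genes of the list were called lower, with Cxcl9 at -0.43, and Gbp5 lay under 1.5-fold with any 1 library left out (-0.55 to -0.58). Fcgr1, an activating Fc receptor and the most abundant gene of the list by TPM over all 4 libraries (Cxcl9 was above it in control libraries), was at 0.45 and not called. The T and NK cell markers also fell, 11 of 12 called lower and 0 higher, from sums of 294 and 331 CPM in control to 129 and 72.4 CPM in propranolol libraries. Nkg7 was the most abundant of them per length, at 38.6, 44.7, 13.4 and 9.36 CPM, and none was at 0 in all libraries. The sort gate should remove T and NK cells that lack its surface markers, and their part in the changes of Cxcl9, Gbp2 and Gbp5 was not tested.

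Ranked per length by the mean TPM of control libraries, the order was Mgl2 at 342, Il4ra at 263, Retnla at 181, Odc1 at 118, Folr2 at 75.0, Nos2 at 32.2 and Chil3 at 24.1. In control libraries the ranges of neighbours in this order did not overlap, and Nos2 was at 29.9 and 34.4 TPM and Chil3 at 26.6 and 21.6 TPM. In the propranolol libraries Il4ra, at 390 and 407 TPM, passed Mgl2, at 377 and 278 TPM, and Chil3, at 52.1 and 46.5 TPM, passed Nos2, at 40.9 and 44.0 TPM. Odc1, at 136 and 136 TPM, and Retnla, at 132 and 132 TPM, were then nearly level.

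**Figure D4:**
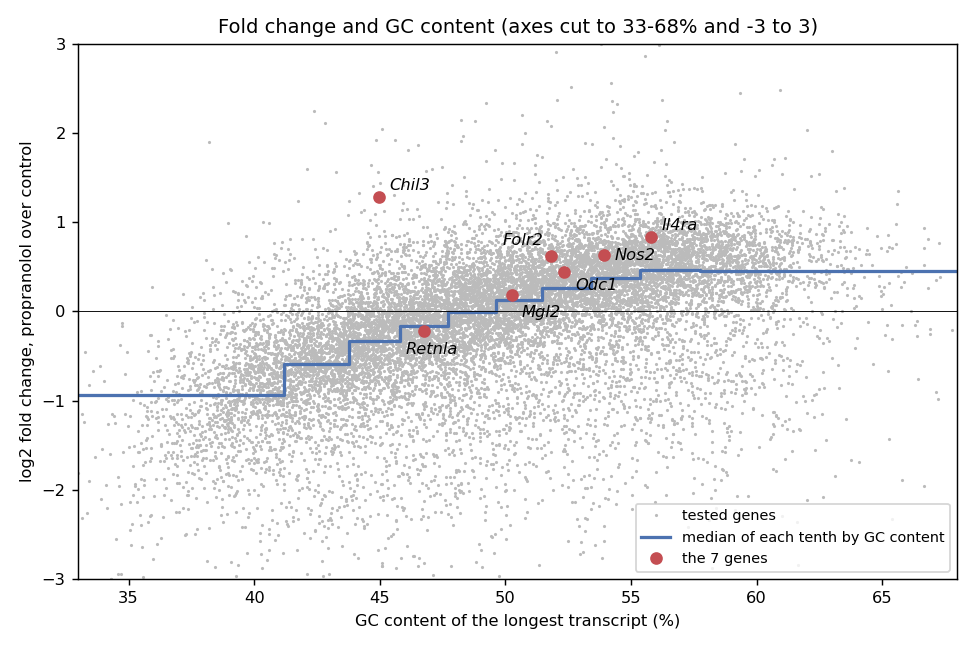
Log2 fold change, propranolol over control (vertical axis), of the tested genes against the GC content of their longest transcript in percent (horizontal axis), with the median of each of 10 equal groups of genes as a stepped line and the 7 genes in red. The median runs from -0.94 in the lowest group to 0.46 in the highest. Chil3 lies above the line by more than the other members, and Retnla and Mgl2 lie closest to it.

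The trend with GC content bears on how each member is read. The median log2 fold change was -0.94 in the group of genes with the lowest GC content and 0.46 in that with the highest. Chil3 lay on the low side of the range, among genes that were mostly lower after propranolol, and its fold change grew when the trend was removed. Nos2, Il4ra, Folr2 and Odc1 lay on the high side, among genes that were mostly higher, and theirs shrank. The trend coincides with the treatment groups, and its source was not tested.

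Genes whose pattern over the 4 libraries was most like that of a member were found by the Euclidean distance between log2 CPM values centred on the gene mean, among 12820 tested genes with a mean of at least 1 CPM. The nearest to Nos2 were Fem1a, Vps11 and 1110008P14Rik, all within 0.03. Those nearest to Chil3 were Asb10, the neutrophil marker S100a8 and Gm10282, at 0.09, 0.11 and 0.12. S100a8 stood at 14.7 and 12.5 CPM in control and at 37.7 and 30.2 CPM in propranolol libraries. These distances over 4 libraries describe the pattern only.

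**Figure D5:**
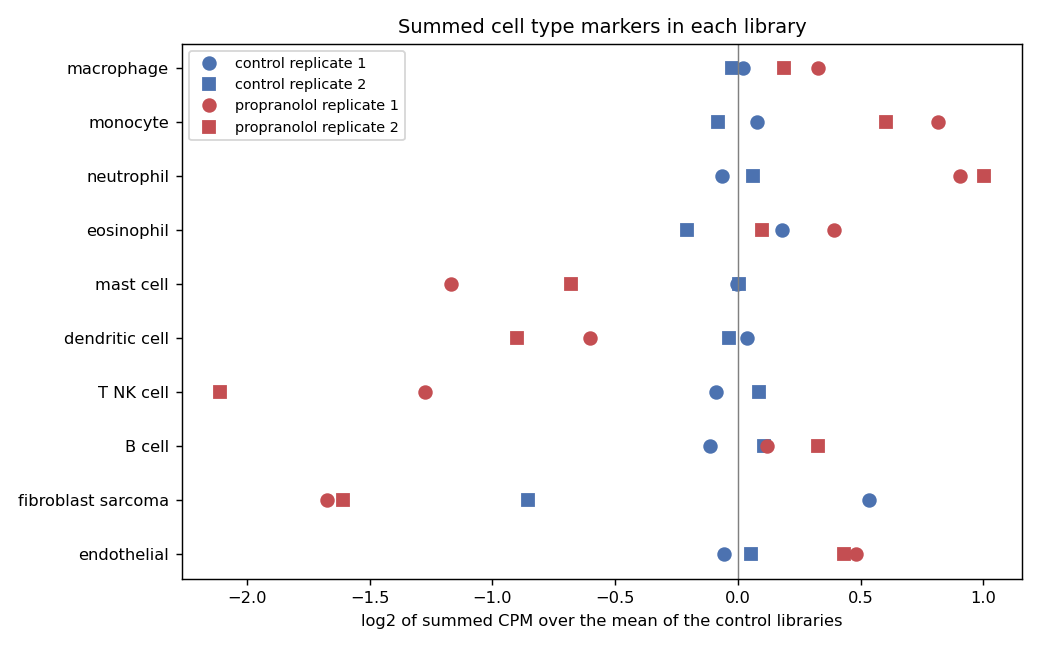
Log2 of the summed CPM of each list of cell type markers over the mean of the control libraries (horizontal axis) in each of the 4 libraries. Neutrophil markers lie higher in both propranolol libraries, as do monocyte markers through Fn1, and dendritic cell, T and NK cell and fibroblast or sarcoma markers lower, while the fibroblast or sarcoma markers of the control libraries lie far apart.

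Beside the members, the other marker lists moved as follows, where 12.2% of all tested genes were called higher and 15.6% lower. The macrophage list had 1 of 12 genes called higher and 1 lower, with sums of 22848 and 22153 CPM in control and 28189 and 25623 CPM in propranolol libraries, led per length by Lyz2. The fibroblast and sarcoma list had 7 of 9 genes called lower and 0 higher, with Col1a1 as the most abundant per length, at 905, 375, 247 and 277 CPM, and Col3a1 at 1294, 423, 212 and 225 CPM. Retnla had its highest level in control replicate 1, the library with the highest sum of these markers, and their part in it was not tested. Of 9 eosinophil markers 5 were tested and 0 called, with Epx and Ear1 at 0 counts in all libraries and list sums of 35.5 and 27.2 CPM in control and 41.1 and 33.6 CPM in propranolol libraries. Ear2, the most abundant of them per length, stood at 9.78 and 9.45 CPM in control and at 16.1 and 11.4 CPM in propranolol libraries (log2 fold change 0.53, edgeR adjusted p = 0.0644), and was called at 0.98 with the GC trend removed. Siglecf, Prg2 and Ccr3 lay between 0.60 and 4.06 CPM and were not called. The part of eosinophils in the values of the members was not tested. The dendritic cell list had 3 of 8 genes called lower and 0 higher, with sums of 41.7, 39.7, 26.8 and 21.8 CPM, led per length by Ccr7. Mgl2 marks a class of dendritic cells as well as macrophages. B cell markers had 2 of 5 tested genes called higher and 1 lower, endothelial markers 1 of 5 higher and 0 lower, and the 1 tested mast cell marker, Kit, was called lower, while the mast cell genes Fcer1a and Ms4a2 had 0 counts. With the GC trend removed, the dendritic cell list had 1 gene called lower (Clec9a), the B cell list 1 higher (Igkc) and 0 lower, and the macrophage and endothelial lists 0 in either direction. In that fit 10 T and NK cell markers and 6 fibroblast and sarcoma markers were called lower, and 5 monocyte and 6 neutrophil markers higher.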

How the data were processed

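RNA sequencing counts of FACS-sorted TAMs were analyzed for 4 libraries, 2 of control (labelled vehicle) and 2 of propranolol treated mice. The deposited values are raw counts of fragments per gene, without normalization. According to the methods and the submitters' processing notes, the authors aligned reads to mm10 with STAR 2.7.1a, kept high-quality alignments with SAMtools 1.9 and counted exons with featureCounts 1.6.4 on a GENCODE annotation, for which no strand option is named. The notes also list DESeq2 1.39.0. All columns of the table were used and 0 were left out.

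Genes were matched by identifier to GENCODE M21 on GRCm38, which named 54079 genes and left 67 without a symbol. Counts were tested with edgeR 4.0.16 in R 4.3.3 (TMM, filterByExpr with a minimum count of 10, quasi-likelihood test, 2 against 2 libraries, no covariates), leaving 14688 genes. TMM factors were 1.08 and 1.09 for control and 0.914 and 0.931 for propranolol libraries. The dispersion common to all genes came to 0.0172. The libraries of a group are stated to be biological replicates, without saying how many mice each holds. The p-values rest on the spread between these libraries, with the variance of each gene drawn toward that of the other genes by the quasi-likelihood fit. Replicates differed by more than counting noise (chi-square per degree of freedom 11.9 in control and 15.4 in propranolol libraries). For the GC correction, the deviation of log2 CPM in each library was smoothed over transcript GC content (natural spline, 5 degrees of freedom) and entered as an offset.

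The members and gene lists were chosen with earlier results of these data known. Named are the 7 members, their close copies, up to 3 called genes of each pathway list with the largest fold change in each direction, the most abundant gene of each list and the 3 nearest patterns to Nos2 and Chil3. Further marker genes of the sorted cells and of other cell types are named outside this rule. Some genes of the set and lists are not reported here and are left out of the counts. Alternatives were DESeq2 1.42.0, other size factors, filters, prior counts and fold limits, limma-voom (limma 3.58.1), the replicate block, the GC correction and each library left out. The GC correction with each library left out was added after seeing the data. On data simulated for this comparison, edgeR recovered 96% of 200 genes changed by a known amount, with 11 false calls among 14346 genes run. With a GC trend added, edgeR made 3797 false calls without and 13 with the correction, among 14310 genes run. The added trend was a straight line on the same GC content that the correction smooths, so its removal was built into the simulation. Promoter stretches were taken from RefSeq (GRCm38.p6). Columns of fold changes by the authors were not used.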

Additional observations from a re-analysis of the deposited data

How the results depend on the processing

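Depth limits the precision of genes with few counts, and 2 libraries a group limit every test here. A library left out leaves a lone library that is assumed to vary like the other group. Chil3 was called under all 18 alternatives with a 1.5-fold limit and Odc1 under none of them.

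For all tested genes, 4084 were called, and 1855 with the GC correction, 2128 with the GC correction and the replicate block, 6204 with no fold limit and 728 with a log2 limit of 1.5. Upper-quartile factors moved the split to 1417 higher and 2533 lower (1798 and 2286 with TMM). The median log2 fold change of all genes shifted by -0.11 in the DESeq2 test, which keeps genes of low count, and by 0.11 with the GC correction. Of the 7 members 4 were called, and 2 with upper-quartile factors, 1 with the GC correction, with or without the block, and 0 with the log2 limit of 1.5. With a library left out, 3615 to 4329 genes and 3 to 4 members were called, and with the GC correction as well 1728, 1827, 2081 and 2181 genes and 1 to 2 members.

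In the arginine and nitric oxide list 3 genes were called, and 6 without a filter on counts, 5 with limma-voom, 10 with no fold limit, 3 to 7 with a library left out and 0 with the log2 limit. In the polyamine list 7 were called, and 3 with the GC correction, with or without the block, 3 to 4 with a library left out as well, 11 with no fold limit and 0 with the log2 limit. In the IL-4 receptor list 3 were called, and 5 without a filter, 2 to 5 with a library left out, 0 with the GC correction, with or without the block, 0 to 1 with a library left out as well, 7 with no fold limit and 0 with the log2 limit. In the IL-4-induced list 9 were called, and 1 with the log2 limit. In the interferon list 4 were called, and 14 with no fold limit and 0 with the log2 limit. Adjusted p-values alone decide with no fold limit.

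Log2 fold changes that lost the call were those of Nos2 at 0.58 with upper-quartile factors and 0.39 with the GC correction, Il4ra at 0.52 with the GC correction, and Folr2 at 0.56 with upper-quartile factors and 0.49 with the GC correction. With a library left out they ran from 0.62 to 0.74 for Nos2, 0.84 to 0.88 for Il4ra and 0.46 to 0.86 for Folr2. With the GC correction as well, those that missed the call were 0.36, 0.39, 0.42 and 0.45 for Nos2, 0.50, 0.53 and 0.55 for Il4ra, and 0.29, 0.41 and 0.58 for Folr2.

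Retnla turned to 0.037 with the GC correction, to 0.12 without control replicate 1 (-0.44 to 0.12 over the libraries) and, with the GC correction as well, to 0.36, 0.033 and 0.093. Mgl2 turned to -0.085 without propranolol replicate 1 (-0.085 to 0.44 over the libraries) and to -0.12 with the GC correction as well. With the GC correction and a library left out, signs also turned for Atp13a3 (0.17 and 0.085), Azin1 (0.072), Clec7a (0.22), Eif5a (-0.049) and Ptpn6 (-0.035). The cause of these shifts was not tested.

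The groups share replicate numbers, but the labels do not say that a number marks a shared mouse, litter or day, and there are 2 such pairs. The correlation over genes of replicate 1 minus replicate 2 between the groups was 0.169. With the replicate number as a block 4362 genes were called, and with the block and the GC correction the log2 fold changes were 0.39 for Nos2, 0.52 for Il4ra, 0.49 for Folr2 and 0.043 for Retnla.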
